A study of Mus musculus with 15 samples.

Results

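Matrix metalloproteinases and the urokinase system were followed through 10 genes picked by symbol: Mmp2, Mmp3, Mmp9, Mmp10, Mmp12, Mmp13, Mmp14, Adam8, Plau and Plaur. They were 10 of the 20418 gene symbols in the deposited tables of 15 mouse eye libraries. Each of them had 1 transcript there, and all 10 passed the filter on low counts in every comparison (Mmp10 and Mmp13 did not when closed eyes of the day 3 genotypes were compared alone). Mmp13, Mmp12, Mmp3 and Mmp10 lie on chromosome 9, Mmp14 and Plau on chromosome 14, Adam8 and Plaur on chromosome 7, Mmp2 on chromosome 8 and Mmp9 on chromosome 2.

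Matrix metalloproteinases are zinc enzymes that cut collagens, laminins, elastin and other matrix proteins outside the cell. Most are secreted as inactive proenzymes, and the tissue inhibitors of metalloproteinases (Timp genes) block them. Plau encodes urokinase, a serine protease that turns plasminogen into plasmin, and Plaur its receptor on the cell surface; plasmin cuts fibrin and can activate several of the metalloproteinases. In skin and cornea, Mmp3, Mmp9, Mmp10, Mmp13, Plau and Plaur are known as genes of wound-edge epithelium and of the cells that gather in wounds.

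The libraries were made from poly(A)+ RNA of eyes taken with their eyelids from BALB/c mice. Newborn eyes were labelled Egr1 knockout in 2 libraries and wild type in 2. At day 3 after birth, 8 single eyes of 4 mice were sequenced, namely 4 eyes of Egr1-/- mice with open eyelids (right eye of E24, left eye of E29, both eyes of E32), 2 eyes of Egr1-/- mice with closed eyelids (left eye of E24, right eye of E29) and 2 eyes with closed eyelids of E28, an Egr1+/- littermate. Adult eyes were labelled Egr1 knockout in 2 libraries and wild type in 1. The mutant allele came from a C57BL/6 line crossed to BALB/c for 5 generations or, in another series, 4, and the labels do not say which series each mouse belonged to. Eyelids of wild-type mice are fused at birth, and the study asked what loss of the transcription factor Egr1 does to eyelid development on this background. The newborn and adult labels name no animals, so their p-values reflect only how libraries differ, which may be technical. They give no eyelid state either, so genotype and eyelid state cannot be told apart in the newborn comparison. There was 1 heterozygous mouse and 1 adult wild-type library, so a difference from either rests on that sample alone.

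The libraries held 20334849 to 43907093 reads in transcripts. Levels are reads scaled to exon length and to library size, with that size adjusted by the trimmed mean of M values (TMM) over all 15 libraries, and are called RPKM below. In whole-eye RNA, fewer cells of a type and less RNA per cell cannot be told apart. Egr1 itself, counted over the whole transcript, was higher in eyes labelled knockout. It stood at 69.8 and 89.1 RPKM in newborn eyes labelled knockout, against 15 and 19.7 RPKM in newborn wild-type eyes. Adult eyes labelled knockout had 83.3 and 60 RPKM of Egr1, against 10.8 RPKM in the adult wild-type eye. At day 3 the eyes labelled Egr1-/- had 51.0 to 119 RPKM, against 32.3 and 35.9 RPKM in the heterozygous eyes. Such counts cannot show whether part of the gene is deleted, so the labels could not be checked with them. The groups are therefore called labelled knockout below. Some libraries stood apart in tissue markers. The summed level of 8 lens markers was 445 CPM (reads scaled to TMM-adjusted library size alone) in newborn labelled-knockout library 1, against 52400 to 59300 CPM in the other newborn libraries, and 8900 CPM in adult labelled-knockout library 1, against 39200 and 52200 CPM in the other adult libraries. The left eye of E32 had 40.6 CPM of 8 retina markers, against 246 to 986 CPM in the other day 3 eyes. No marker of the lens, retina, keratinocyte or macrophage lists was at 0 reads in any library.

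The upstream sequence of the genes with a window is shown first, because some held an AP-1 letter match and others did not. AP-1 is a family of Fos and Jun transcription factors known to act on metalloproteinase genes. RefSeq windows of 250 bases before the annotated start (build GRCm38.p6, not the mm8 build of the files) were found for 7 of the 10 genes, with 2 windows for Mmp12. The letters TGAGTCA, searched on both strands, occurred in a window of Mmp3, Mmp10, Mmp12, Mmp13 and Plaur. These were 5 of the 7 genes and 5 of their 8 windows, and the same letters occurred in 4.46% of all 32851 windows of that length. Here and below, a gene was counted if any of its windows matched, while the share over all is of single windows. The Egr letters GCGTGGGCG or GCGGGGGCG, also searched on both strands, occurred in the windows of Mmp14 and Plaur and in 3.06% of all windows. Adam8 held neither match. The second Mmp12 window held the AP-1 letters and the first did not, and that second window is the one shown. The last 120 bases before the start are printed 5′ to 3′ on the gene's strand, with the AP-1 or Egr letters in capitals.
Mmp13, chr9:7272394-7272513, plus strand: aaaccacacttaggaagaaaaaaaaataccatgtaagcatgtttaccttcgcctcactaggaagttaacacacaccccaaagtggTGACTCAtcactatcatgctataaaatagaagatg
Mmp12, chr9:7347254-7347373, plus strand: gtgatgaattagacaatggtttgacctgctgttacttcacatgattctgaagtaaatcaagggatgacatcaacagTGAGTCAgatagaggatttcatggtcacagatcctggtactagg
Mmp3, chr9:7445702-7445821, plus strand: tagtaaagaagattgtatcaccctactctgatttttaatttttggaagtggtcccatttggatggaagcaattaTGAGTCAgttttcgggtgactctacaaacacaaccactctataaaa
Mmp10, chr9:7502222-7502341, plus strand: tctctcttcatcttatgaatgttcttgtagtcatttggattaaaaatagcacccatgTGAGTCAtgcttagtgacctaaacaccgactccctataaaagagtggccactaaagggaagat
Plaur, chr7:24462363-24462482, plus strand: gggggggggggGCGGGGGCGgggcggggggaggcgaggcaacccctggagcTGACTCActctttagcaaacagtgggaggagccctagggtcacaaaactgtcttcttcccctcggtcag
Mmp14, chr14:54431478-54431597, plus strand: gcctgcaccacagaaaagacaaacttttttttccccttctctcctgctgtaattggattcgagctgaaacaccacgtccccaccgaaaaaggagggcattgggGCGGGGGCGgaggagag
Adam8, chr7:139992563-139992682, minus strand: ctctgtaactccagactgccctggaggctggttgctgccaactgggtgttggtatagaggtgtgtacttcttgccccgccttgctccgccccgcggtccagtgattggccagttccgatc
In Mmp3 the AP-1 letters ran from base 46 to base 40 before the start, in Mmp10 from 63 to 57, in Mmp12 from 44 to 38, in Mmp13 from 35 to 29 and in Plaur from 69 to 63. The match lay on the minus strand in Mmp13 and Plaur, where it reads TGACTCA on the strand shown. The Egr letters of Mmp14 ran from base 17 to base 9 before the start and those of Plaur from 109 to 101. TATAAA, searched on the strand of the gene, followed the AP-1 letters in Mmp3, Mmp10 and Mmp13 and occurred in 7.59% of all windows. AGGAAG, the core bound by Ets factors, was in windows of 5 of the 7 genes (Mmp3, Mmp12, Mmp13, Mmp14 and Plaur) and in 29.5% of all windows, and the NF-kB motif was in none of the members' windows and in 0.32% of all. No 2 matches overlapped. These letter matches were not tested against any binding data.

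Mmp14 and Mmp2 made up most of the summed level of the 10 genes in every library but adult labelled-knockout library 1. Mmp14 encodes a membrane-anchored collagenase that activates the proenzyme of Mmp2, and Mmp2 a gelatinase made mainly by stromal cells. Their joint share of the summed RPKM was 84.6% and 79.3% in newborn labelled-knockout eyes, against 93.5% and 95.4% in newborn wild-type eyes. At day 3 it was 73.4% to 92.5% in open eyes, against 96.2% to 98.3% in the 4 closed eyes. Adult labelled-knockout eyes had 49.2% and 60.4%, against 73.2% in the adult wild-type eye. Over all 15 libraries Mmp14 spanned 30.0 to 268 RPKM and Mmp2 23.6 to 193 RPKM, while Mmp10 never exceeded 1.40 RPKM, or 72 reads. No library had 0 reads of Mmp2, Mmp9, Mmp14, Adam8, Plau or Plaur, whereas Mmp10 and Mmp12 were at 0 reads in 3 libraries each, Mmp3 in 2 and Mmp13 in 1, all of them day 3 closed eyes.

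**Figure D1:**
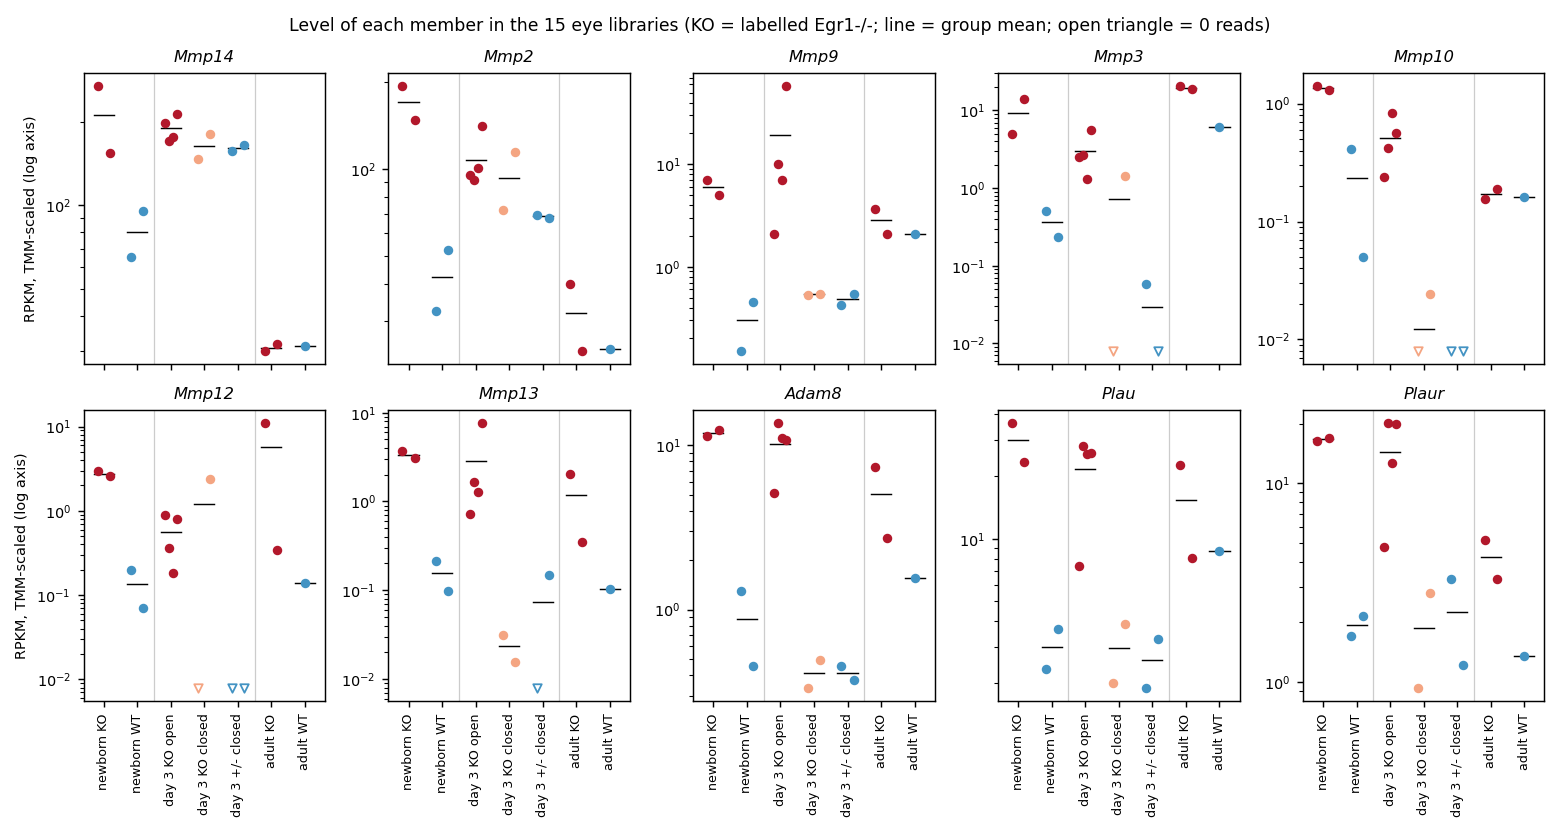
Level of the 10 genes (RPKM, log axis) in each of the 15 libraries, by group; each point is 1 library, the line is the group mean and an open triangle marks 0 reads. Adam8 sits at 5.11 to 13.6 RPKM in the 4 open eyes and at 0.336 to 0.493 RPKM in the 4 closed eyes of day 3, while Mmp14 runs from 147 to 213 RPKM over all 8.

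In newborn eyes all 10 genes were higher in both labelled-knockout libraries than in both wild-type libraries, and 33.8% of all 17592 genes tested separated in the same way. Of the 10, 8 rose by the test (Mmp2, Mmp3, Mmp9, Mmp13, Mmp14, Adam8, Plau and Plaur). Of all genes tested, 24% were called in this comparison, 14.6% higher and 9.38% lower. The median log2 fold change of the 10 genes was 3.54, against -0.07 over all genes tested. Of the called genes 61% were higher, against 71.7% with the authors' own library totals, under which all 10 members were called. The test was edgeR's quasi-likelihood test with Benjamini-Hochberg adjustment at 0.05 over all genes, as in all comparisons below.

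Mmp14 and Mmp2 stood at the highest levels. Mmp14 was at 268 and 154 RPKM in newborn labelled-knockout eyes, against 65.2 and 95.7 RPKM in wild-type eyes, a log2 fold change of 1.38 ± 0.33 (SE; adjusted p = 0.0234). For Mmp2 the values were 193 and 148 RPKM in labelled-knockout eyes, against 32.5 and 52.6 RPKM in wild-type eyes, a log2 fold change of 1.99 ± 0.36 (adjusted p = 0.00896). Mmp9, the gelatinase of neutrophils, osteoclasts and migrating keratinocytes, was low in both wild-type eyes. It had 6.99 and 4.99 RPKM in labelled-knockout eyes, against 0.151 and 0.449 RPKM in wild-type eyes, with a log2 fold change of 4.28 ± 0.52 (adjusted p = 0.0034).

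Mmp3 and Mmp10 encode the stromelysins, which cut a broad range of matrix proteins and activate other proenzymes. Mmp3 was at 4.91 and 13.9 RPKM in labelled-knockout eyes, against 0.502 and 0.238 RPKM in wild-type eyes, and its log2 fold change was the largest of the 10 in this comparison (4.67 ± 0.59, adjusted p = 0.00362). Mmp10 was at 1.40 and 1.30 RPKM in labelled-knockout eyes, against 0.416 and 0.0499 RPKM in wild-type eyes, and did not pass (log2 fold change 2.53 ± 0.85, adjusted p = 0.0724). The wild-type libraries differed more from each other in Mmp10 than the labelled-knockout libraries did. Mmp13, an interstitial collagenase of bone and of wounds, had 3.66 and 3.07 RPKM in labelled-knockout eyes, against 0.216 and 0.0971 RPKM in wild-type eyes (log2 fold change 4.42 ± 0.85, adjusted p = 0.011). Mmp12, the elastase of macrophages, was at 2.95 and 2.56 RPKM in labelled-knockout eyes, against 0.198 and 0.0711 RPKM in wild-type eyes, and missed the threshold (4.35 ± 1.45, adjusted p = 0.0693). For all 4 genes the groups did not overlap.

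Urokinase and its receptor moved by a like amount. Plau was at 36.2 and 23.6 RPKM in labelled-knockout eyes, against 2.34 and 3.65 RPKM in wild-type eyes (log2 fold change 3.31 ± 0.52, adjusted p = 0.00599). Plaur was at 16.4 and 17.0 RPKM in labelled-knockout eyes, against 1.70 and 2.14 RPKM in wild-type eyes, and its log2 fold change of 3.10 ± 0.28 had the smallest adjusted p of the 10 genes (0.00257). Both labelled-knockout libraries were thus above both wild-type libraries in enzyme and receptor. Adam8 encodes a membrane-bound metalloproteinase of the disintegrin family, known from neutrophils, macrophages and osteoclasts. It had 11.4 and 12.4 RPKM in labelled-knockout eyes, against 1.30 and 0.451 RPKM in wild-type eyes (log2 fold change 3.76 ± 0.59, adjusted p = 0.00609).

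Both newborn wild-type libraries were needed for most of these calls. Without wild-type library 1, 0 of the 10 genes and 0 of all genes were called by edgeR, and without wild-type library 2, Mmp9 and Plaur were called among 728 genes; all 10 fold changes kept their sign in both cases. Without labelled-knockout library 1, the one low in lens markers, a lone labelled-knockout library is left. Mmp14 then lost its call, and all 10 fold changes kept their sign. Markers of several cell types differed between the labelled groups in these libraries, where 14.6% of all genes tested rose and 9.38% fell. The summed level of 14 keratinocyte markers was 14700 and 12800 CPM in labelled-knockout eyes, against 1240 and 2230 CPM in wild-type eyes, and 12 of them rose. Summed levels of 11 neutrophil markers were 88.7 and 87.7 CPM in labelled-knockout eyes, against 17.8 and 9.41 CPM in wild-type eyes, and 6 of them rose. For 12 macrophage markers the sums were 574 and 443 CPM in labelled-knockout eyes, against 160 and 164 CPM in wild-type eyes, with 4 risen. Fibroblast markers summed to 23400 and 14600 CPM in labelled-knockout eyes, against 4740 and 7190 CPM in wild-type eyes, with 6 of 10 risen. The 8 retina markers all fell, with sums of 64.8 and 213 CPM in labelled-knockout eyes, against 830 and 988 CPM in wild-type eyes. Their part in the levels of the 10 genes was not tested.

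**Figure D2:**
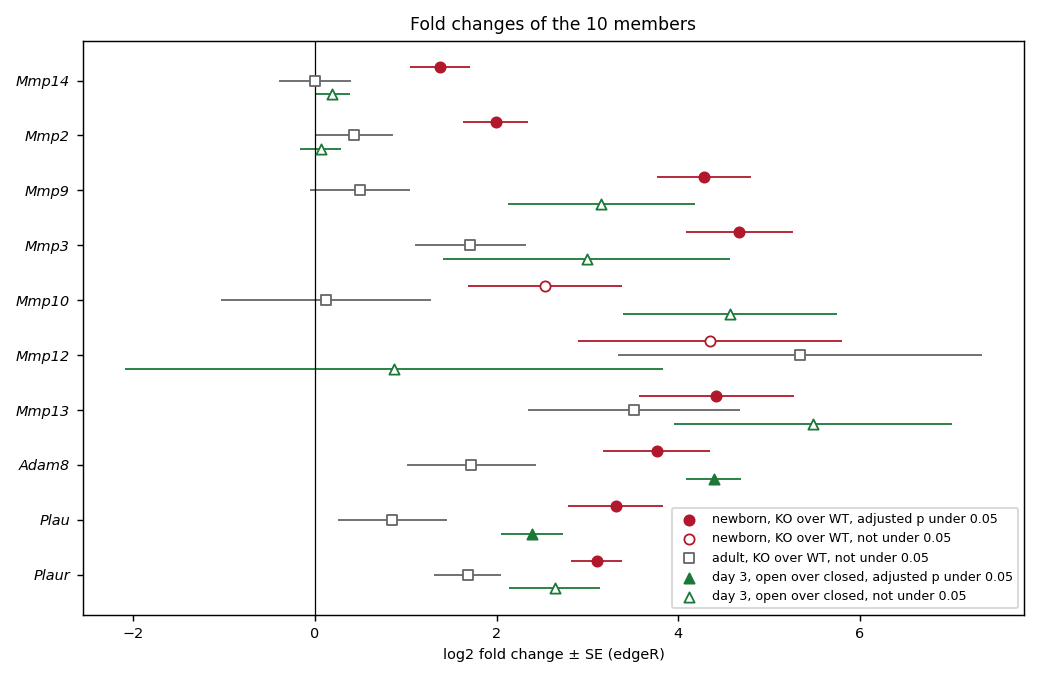
Log2 fold change ± SE of the 10 genes in 3 comparisons: newborn labelled knockout over wild type (circles), adult labelled knockout over wild type (squares) and day 3 open over closed eyelids with the mouse as a block (triangles); filled symbols have an adjusted p under 0.05. The circles of 8 genes and 2 triangles (Adam8 at 4.39 and Plau at 2.39) are filled, and no square is.

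At day 3, open eyes were compared with closed eyes within the mouse, since E24 and E29 each had 1 open and 1 closed eye. Adam8 and Plau rose in open eyes, 2 of the 10 genes, while 0.514% of the 15754 genes tested were called, 0.457% higher and 0.0571% lower. The median log2 fold change of the 10 genes was 2.81, against 0.02 over all genes. Mmp9, Mmp10, Mmp13, Adam8, Plau and Plaur, 6 of the 10, were higher in every open eye than in any closed eye, as were 6.56% of all genes tested. For Mmp2, Mmp3, Mmp12 and Mmp14 the open and closed eyes overlapped.

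Adam8 had the smallest adjusted p of the 10. It was at 5.11, 13.6, 11.1 and 10.7 RPKM in the open eyes of E24, E29, E32 (right) and E32 (left), against 0.336 and 0.493 RPKM in the closed eyes of E24 and E29 and 0.451 and 0.375 RPKM in those of E28. Within a mouse, the open eye had 15.2 times the Adam8 level of the closed eye in E24 (95% exact Poisson interval 10.2 to 23.8, counting error only) and 27.6 times in E29 (19.8 to 39.6). Its log2 fold change was 4.39 ± 0.30 (adjusted p = 0.00246). Plau was at 7.36, 27.9, 25.6 and 25.9 RPKM in the same 4 open eyes, against 2.01 and 3.89 RPKM in the closed eyes of E24 and E29 and 1.91 and 3.28 RPKM in those of E28. The lowest open eye, that of E24, was still above the highest closed eye. The log2 fold change of Plau was 2.39 ± 0.34 (adjusted p = 0.0395), with open-over-closed ratios of 3.67 in E24 and 7.17 in E29. The pairs of E24 and E29 carry the comparison: 0 of all genes were called by edgeR without E24 and 1 was without E29. Neither Adam8 nor Plau passed then (adjusted p of Adam8 0.0829 and 0.104, of Plau 0.248 and 0.778). Their log2 fold changes were 4.80 and 3.93 for Adam8 and 2.86 and 1.88 for Plau.

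Plaur followed Plau without passing. It had 4.79, 20.1, 12.6 and 20.0 RPKM in the open eyes, against 0.935 and 2.80 RPKM in the closed labelled-knockout eyes and 3.29 and 1.22 RPKM in the heterozygous eyes (log2 fold change 2.64 ± 0.50, adjusted p = 0.117). The ratio of Plaur to Plau was 0.493 to 0.774 in open eyes, against 0.373 to 1.73 in closed eyes. In the 2 pairs alone, Mmp13, Adam8, Plau and Plaur were called among 210 genes. DESeq2's Wald test on all 8 eyes called the same members among 369 genes, against 81 genes in the main fit.

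Mmp9 and Mmp13 differed most among the open eyes themselves. Mmp9 was at 2.09, 10.1, 7.02 and 57.4 RPKM in the open eyes of E24, E29, E32 (right) and E32 (left), against 0.424 to 0.544 RPKM in the 4 closed eyes (log2 fold change 3.15 ± 1.03, adjusted p = 0.521). Mmp13 was at 0.725, 1.65, 1.28 and 7.65 RPKM in these open eyes, against 0 to 0.149 RPKM, or 0 to 9 reads, in closed eyes (5.48 ± 1.53, adjusted p = 0.345). In both genes the left eye of E32 was the highest. That eye also had the most neutrophil marker reads of the day 3 eyes, with a summed level of 129 CPM against 41.7 CPM in the right eye of the same mouse, and the highest fibroblast markers, 24200 CPM against 11200 CPM. Their part in its Mmp9 and Mmp13 levels was not tested. The right eye of E32 had 0.122 times the Mmp9 level and 0.167 times the Mmp13 level of the left, whereas Adam8 and Plau were nearly equal in both (1.03 and 0.988 times).

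The remaining genes were mixed within mice. Mmp10 was at 0.241, 0.419, 0.835 and 0.559 RPKM in open eyes, against 1 read in 1 of the 4 closed eyes and 0 reads in the other 3 (4.57 ± 1.18, adjusted p = 0.331). Mmp3 was at least 36.8-fold higher in the open eye of E24 than in its closed eye, taking 3 reads as the floor for 0 (the exact 95% Poisson interval of the ratio starts at 29.5), but only 1.85 times as high in E29 (1.36 to 2.54). Over all eyes Mmp3 had 2.50, 2.69, 1.32 and 5.59 RPKM in open eyes, against 0 and 1.45 RPKM in closed labelled-knockout eyes and 0.0584 and 0 RPKM in heterozygous eyes. Mmp12 went opposite ways in the pairs: the open eye of E24 was at least 26.1-fold above its closed eye (interval from 20.8), while the open eye of E29 had 0.152 times the level of its closed eye (0.103 to 0.219). Its levels were 0.885, 0.367, 0.184 and 0.809 RPKM in open eyes, against 0 and 2.41 RPKM in closed labelled-knockout eyes and 0 reads in both heterozygous eyes. Mmp2 and Mmp14, the most abundant of the 10 at day 3, did not pass the test. Mmp2 was at 95.6, 91.7, 101 and 141 RPKM in open eyes, against 72.1 and 115 RPKM in closed labelled-knockout eyes and 69.4 and 68.0 RPKM in heterozygous eyes (0.06 ± 0.23, adjusted p = 0.999). Mmp14 was at 198, 171, 176 and 213 RPKM in open eyes, against 147 and 181 RPKM in closed labelled-knockout eyes and 157 and 165 RPKM in heterozygous eyes (0.19 ± 0.19, adjusted p = 0.999).

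**Figure D3:**
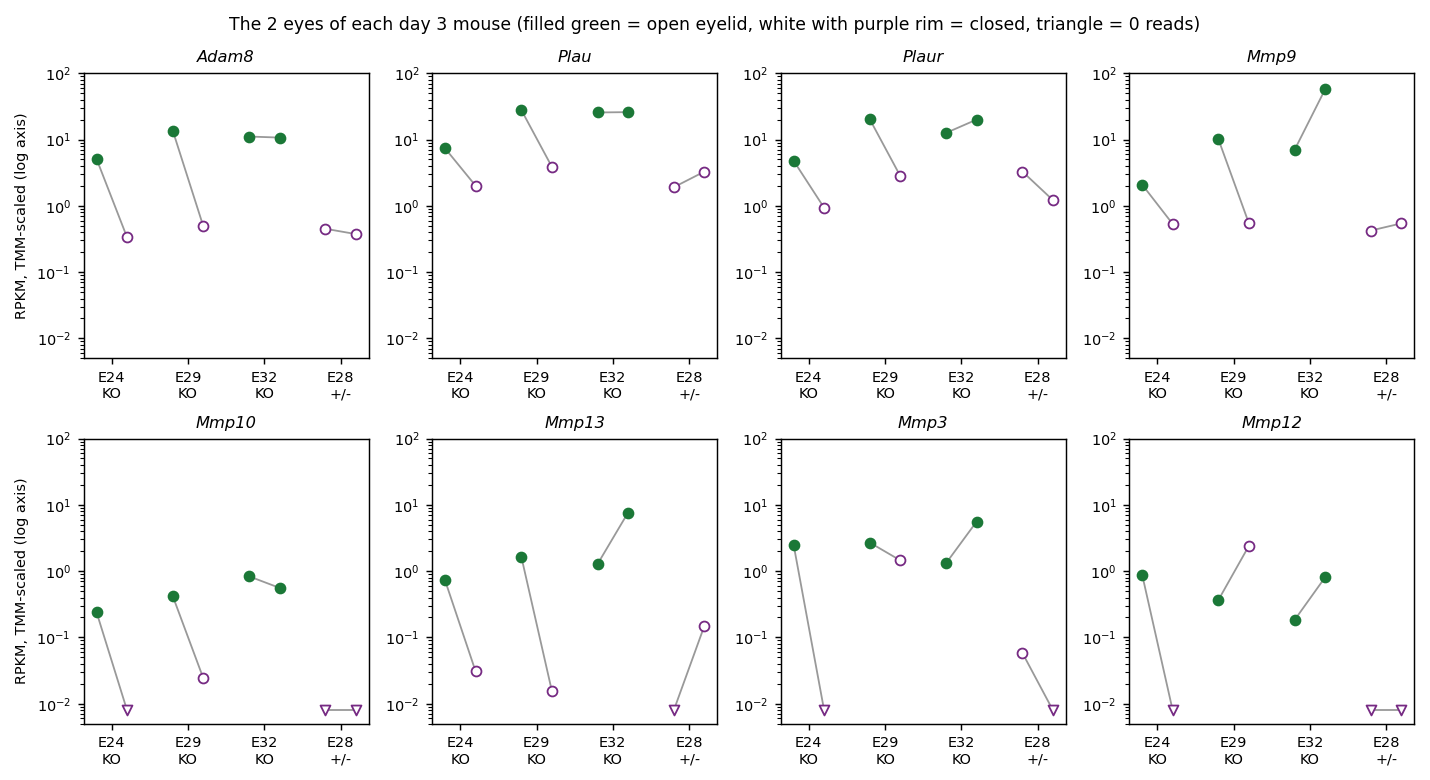
Level (RPKM, log axis) of 8 of the genes in both eyes of each day 3 mouse, joined by a line; filled green is an open eyelid, a white point with a purple rim a closed one and a triangle 0 reads. The open eye stands left in E24 and E29, and the right eye stands left in E32 (both open) and E28 (both closed). Adam8 and Plau drop from left to right in E24 and E29 and are nearly level in E32, where Mmp9 differs most (7.02 and 57.4 RPKM).

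Cell type markers differed with eyelid state as well. Keratinocyte markers summed to 6690 to 21300 CPM in open eyes, against 1340 to 2820 CPM in closed eyes, and 8 of 14 rose. Neutrophil markers summed to 24.6 to 129 CPM in open eyes, against 13.5 to 32.4 CPM in closed eyes, and 0 of the 10 tested were called by edgeR (2 at an unadjusted p under 0.05). Macrophage markers summed to 372 to 515 CPM in open eyes, against 230 to 387 CPM in closed eyes, with 0 of 12 called (5 unadjusted). The closed eye of E29 held the 387 CPM, against 230 to 247 CPM in the other closed eyes. It also held the 32.4 CPM of neutrophil markers, against 13.5 to 14.5 CPM in the other closed eyes. None of 10 fibroblast markers was called (0 unadjusted). The part of these cells in the levels of the 10 genes was not tested.

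Labelled-knockout mice were also set against the heterozygous mouse at day 3, with the reads of both eyes summed per mouse. By edgeR 0 of the 10 genes and 0% of the 16453 genes tested were called, while 4 of the 10 (Mmp3, Mmp10, Mmp12 and Adam8) and 273 of all genes had an unadjusted p under 0.05. DESeq2's Wald test called 3 of the 10 (Mmp3, Mmp12 and Adam8) among 96 genes. All 10 had a positive log2 fold change, with a median of 4.45 against 0.03 over all genes. Of the labelled-knockout eyes 4 were open and 2 closed, while both heterozygous eyes were closed. Genotype and eyelid state therefore cannot be told apart in the summed reads. Mmp3, Mmp10 and Mmp12 were at or near 0 reads in the heterozygous eyes. Mmp10 was at least 10.6-fold and Mmp12 at least 46.4-fold higher in the labelled-knockout mice, taking 3 reads over the heterozygous mouse as the floor (intervals from 8.44 and 37.6), and Mmp3 was 69.5 times as high (95% exact Poisson interval 23.7 to 338, counting error only). These reads were unevenly spread over the eyes. Mmp10 had 11, 19, 41 and 24 reads in the open eyes, against 0 and 1 in the closed labelled-knockout eyes, and in Mmp3 and Mmp12 the closed eye of E24 had 0 reads and that of E29 had 63 and 209. When closed eyes alone were compared, the log2 fold changes of Mmp3 and Mmp12 were 4.44 and 10.21, with all reads of the labelled-knockout side from the closed eye of E29. Mmp12 had 0 reads on the heterozygous side, so the reads do not set the size of its 10.21. In the same comparison, the log2 fold change of Adam8 was 0.02, that of Plau 0.26, that of Mmp9 0.20 and that of Plaur -0.31, against 4.12, 2.69, 4.77 and 2.17 with all eyes; none of these passed. Mmp13 and Mmp14 had log2 fold changes of 4.84 ± 1.96 and 0.22 ± 0.22 with all eyes (adjusted p = 0.999 for both). Mmp2 was the one gene whose 6 labelled-knockout eyes (72.1 to 141 RPKM) all lay above both heterozygous eyes (0.61 ± 0.30, adjusted p = 0.999), which held for 3.41% of all genes tested.

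In adult eyes 0 of the 10 genes were called by edgeR (5 at an unadjusted p under 0.05, namely Mmp3, Mmp12, Mmp13, Adam8 and Plaur), and 0% of the 17592 genes tested were (506 unadjusted). DESeq2 called Plaur among 107 genes. The median log2 fold change of the 10 was 1.27, against 0.02 over all genes. Plaur was at 5.2 and 3.31 RPKM in adult labelled-knockout eyes, against 1.35 RPKM in the adult wild-type eye (1.68 ± 0.37, adjusted p = 0.69). Mmp3 was at 20.4 and 19.0 RPKM in labelled-knockout eyes, the highest levels of this gene in any library, against 6.14 RPKM in the wild-type eye (1.71 ± 0.61, adjusted p = 1).

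The adult labelled-knockout libraries differed between themselves in several of the other genes. Mmp12 had 11 and 0.346 RPKM in them, against 0.140 RPKM in the wild-type eye. Mmp13 had 2.03 and 0.350 RPKM in labelled-knockout eyes, against 0.104 RPKM in the wild-type eye. Library 1, the one low in lens markers, was the higher in both. It held 948 CPM of the macrophage markers, against 240 CPM in labelled-knockout library 2 and 198 CPM in the wild-type eye. Of 7 cornea and conjunctiva markers, its Krt12 was at 1.42 RPKM, against 2080 and 3460 RPKM in those libraries. Aldh3a1 was at 420 RPKM, against 1880 and 2690 RPKM, and Kera at 3.63 RPKM, against 23.6 and 34.2 RPKM. Krt4, Krt13 and Krt19 lay between the other adult libraries, and Muc5ac was near the wild-type eye. The part of macrophages or of these tissues in the levels was not tested. Adam8 had 7.34 and 2.74 RPKM in labelled-knockout eyes, against 1.56 RPKM in the wild-type eye. Plau had 22.7 and 8.09 RPKM in labelled-knockout eyes, against 8.68 RPKM in the wild-type eye, so that the groups overlapped. Without library 1 the log2 fold change of Plau was -0.07, against 0.85 ± 0.60 with it. Mmp9 was at 3.64 and 2.08 RPKM in labelled-knockout eyes, against 2.08 RPKM in the wild-type eye. Mmp10 stayed between 0.154 and 0.189 RPKM in all 3 adult eyes. Mmp2 had 40.0 and 23.6 RPKM in labelled-knockout eyes, against 23.9 RPKM in the wild-type eye, and Mmp14 had 30.0 and 31.7 RPKM, against 31.3 RPKM.

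The difference between labelled knockout and wild type (the genotype difference) was itself compared between ages. For Mmp9 it was smaller in adults than in newborns by 3.80 ± 0.72 on the log2 scale (a difference of -3.80, adjusted p = 0.0455), and Mmp9 was the only one of the 10 genes called, where 2.8% of 17592 genes were called, 0.995% higher and 1.8% lower. Of the called genes 35.6% were higher, against 21.8% with the authors' library totals, under which Mmp3 was called as well. The other 9 genes had differences of -2.96 (Mmp3) to 0.99 (Mmp12), and 6 of these 9 had an unadjusted p under 0.05, as did 20.7% of all genes tested. The differences were -1.56 (Mmp2), -1.38 (Mmp14), -2.42 (Mmp10), -0.90 (Mmp13), -2.05 (Adam8), -2.46 (Plau) and -1.42 (Plaur). The median was -1.80 for the 10 genes, against 0.08 over all. Without adult labelled-knockout library 1 or 2 a lone library is left in that group, and the set of genes called changed. Mmp9 lost its call without newborn wild-type library 1 or 2, either of which leaves a lone library as well. Without newborn labelled-knockout library 1, Mmp3 was called in place of Mmp9.

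Between ages, Mmp14 and Mmp2 had their lowest levels in adult eyes. Adult labelled-knockout eyes had lower Mmp14 than newborn labelled-knockout eyes by 2.77 ± 0.34 on the log2 scale (log2 fold change -2.77, adjusted p = 0.000962), and Mmp2 (-2.42 ± 0.36, adjusted p = 0.00213), Mmp10 (-2.95 ± 0.88, adjusted p = 0.0335) and Plaur (-1.97 ± 0.27, adjusted p = 0.00139) fell too. Mmp10 was not called when any 1 of the 4 labelled-knockout libraries was left out (adjusted p 0.0881 to 0.117). The other 6 genes had log2 fold changes of 1.07 (Mmp3), 1.03 (Mmp12), -0.96 (Plau), -1.07 (Mmp9), -1.24 (Adam8) and -1.50 (Mmp13). The genes called were 4 of the 10, while 39.7% of all genes were called, 19.3% higher and 20.4% lower. In wild-type eyes, Mmp3 (4.03 ± 0.64, adjusted p = 0.00371) and Mmp9 (2.73 ± 0.57, adjusted p = 0.0105) were higher in the adult than in newborns and Mmp14 was lower (-1.40 ± 0.42, adjusted p = 0.0418). The other 7 genes had log2 fold changes of 1.5 (Plau), 0.81 (Adam8), 0.05 (Mmp12), -0.54 (Mmp10), -0.55 (Plaur), -0.60 (Mmp13) and -0.87 (Mmp2). The genes called were 3 of the 10, while 32.6% of all genes were called, 18% higher and 14.6% lower. Without adult labelled-knockout library 1 a lone library is left in that group, and the set of genes called between labelled-knockout ages changed. Without newborn wild-type library 1, which leaves a lone library too, Mmp9 and Mmp14 lost their calls between wild-type ages.

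Across the 7 groups, the order of mean levels split the genes. Mean levels were highest in newborn labelled-knockout eyes for 7 genes (Mmp2, Mmp10, Mmp13, Mmp14, Adam8, Plau and Plaur), in adult labelled-knockout eyes for Mmp3 and Mmp12 and in day 3 open eyes for Mmp9. For Plau the order was newborn labelled knockout (29.9 ± 8.85 RPKM, SD, n = 2), day 3 open (21.7 ± 9.59, n = 4), adult labelled knockout (15.4 ± 10.3, n = 2), adult wild type (8.68, n = 1), newborn wild type (2.99 ± 0.925, n = 2), day 3 closed labelled knockout (2.95 ± 1.33, n = 2) and day 3 closed heterozygous (2.59 ± 0.970, n = 2). Neighbouring groups overlapped everywhere in that order except between the adult and newborn wild types. Adam8 had the same 3 groups on top, at 11.9 ± 0.729, 10.1 ± 3.58 and 5.04 ± 3.25 RPKM, and these overlapped in turn. Its lower groups were the adult wild type (1.56 RPKM), newborn wild type (0.876 ± 0.601), day 3 closed labelled knockout (0.415 ± 0.111) and heterozygous (0.413 ± 0.0532), of which the last 3 overlapped. Mmp13 and Plaur likewise had newborn labelled-knockout, open and adult labelled-knockout eyes on top, overlapping in turn, with every other group below. Mmp14 ran from 211 ± 80.3 RPKM in newborn labelled-knockout eyes through 190 ± 19.6 (day 3 open), 164 ± 24.2 (closed labelled knockout) and 161 ± 5.74 (heterozygous), all overlapping in turn, to 80.4 ± 21.5 in newborn wild-type, 31.3 in adult wild-type and 30.8 ± 1.18 in adult labelled-knockout eyes. Mmp2 went 170 ± 31.4 in newborn labelled-knockout, 107 ± 23.0 in open, 93.5 ± 30.2 in closed labelled-knockout, 68.7 ± 1.01 in heterozygous, 42.5 ± 14.2 in newborn wild-type, 31.8 ± 11.7 in adult labelled-knockout and 23.9 RPKM in adult wild-type eyes; open and closed labelled-knockout eyes overlapped, as did the last 3 groups in turn.

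Adam8, Plau, Plaur, Mmp9 and Mmp13 varied together over the 15 libraries, and Mmp2 varied with Mmp14. Pearson's r of log2 CPM over 15 libraries was 0.94 for Adam8 and Plau, 0.92 for Adam8 and Mmp13, 0.90 for Mmp9 and Mmp13 and 0.91 for Mmp2 and Mmp14, but 0.11 for Plau and Mmp14. These are descriptions, since the libraries share groups, mice and cell makeup. Among 14041 genes with a mean of at least 1 RPKM, those closely like Plau included Tnfrsf11b (0.959), which encodes osteoprotegerin, and Ptger4 (0.959), a prostaglandin receptor. The genes most like Adam8 were Ppbp (0.966), a platelet chemokine, and Il1b (0.963), an inflammatory cytokine. For Plaur it was Was (0.954), a regulator of actin in blood cells; for Mmp13 and, in second place, Mmp9 it was Spp1 (0.938 and 0.928), which encodes osteopontin; and for Mmp3 it was Errfi1 (0.947), an inhibitor of the epidermal growth factor receptor. The closest to Mmp10 was Tnfrsf10b (0.944), a death receptor, and to Mmp9 Abi3 (0.931). Mmp14 was closest to Nfatc4 (0.993), a transcription factor, and Mmp2 to Angptl2 (0.985), a secreted glycoprotein. Mmp12 had the weakest match, Plek (0.883), a protein of platelets and leukocytes.

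The rest of the plasminogen system was counted over 14 genes besides Plau and Plaur. Of the 12 tested in newborn eyes 7 rose and none fell, with a median log2 fold change of 0.96. Over all genes tested there, 14.6% rose and 9.38% fell. Serpinb2, an inhibitor of urokinase, was at 2.62 and 3.25 RPKM in labelled-knockout eyes, against 0.125 and 0.0898 RPKM in wild-type eyes (4.74 ± 0.32, adjusted p = 0.0022). Enzyme, receptor and this inhibitor were thus higher in both labelled-knockout libraries than in both wild-type ones. F3 (tissue factor), Plat (tissue-type plasminogen activator) and Anxa2 (a plasminogen-binding annexin) rose by 1.82 ± 0.27, 1.63 ± 0.29 and 2.05 ± 0.37 on the log2 scale. Plasminogen itself (Plg), a liver product, had at most 0.173 RPKM in any library. At day 3, 0 of 11 were called in open eyes by edgeR (4 at an unadjusted p under 0.05). Serpinb2 was at 1.17 to 5.52 RPKM in open eyes, against 0 to 0.0857 RPKM in closed eyes, and missed the threshold (4.95 ± 0.88, adjusted p = 0.0892). In adults 0 of 12 were called by edgeR (2 unadjusted), and none of 11 between labelled-knockout and heterozygous mice at day 3 (1 unadjusted). The genotype difference in adults minus that in newborns was called by edgeR for F3 (-2.57 ± 0.41, adjusted p = 0.0421) and Serpinb2 (-2.38 ± 0.43, adjusted p = 0.0428). F3 went the opposite way in adults, at 25.2 and 24.8 RPKM in labelled-knockout eyes, against 42.9 RPKM in the wild-type eye. Serpinb2 stayed higher in adult labelled-knockout eyes, at 8.99 and 8.94 RPKM, against 1.78 RPKM in the wild-type eye.

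Of 6 metalloproteinase inhibitors, 4 rose in newborn labelled-knockout eyes, with a median log2 fold change of 1.01, while 14.6% of all genes tested rose. Timp1 was at 28.2 and 31.1 RPKM in labelled-knockout eyes, against 4.01 and 3.27 RPKM in wild-type eyes (3.02 ± 0.53, adjusted p = 0.00846). Timp2, a partner of Mmp14 in activating Mmp2, was at 152 and 116 RPKM in labelled-knockout eyes, against 48.3 and 64.1 RPKM in wild-type eyes (1.24 ± 0.29, adjusted p = 0.0214). Reck, a membrane-anchored inhibitor, and Timp3, which is held in the matrix, rose by 1.08 ± 0.19 and 0.94 ± 0.24 on the log2 scale. At day 3 none of the 6 was called in open eyes by edgeR (2 unadjusted). Timp1 was at 8.11, 27.4, 21.9 and 30.7 RPKM in open eyes, against 4.17 and 3.69 RPKM in closed labelled-knockout eyes and 4.06 and 2.85 RPKM in heterozygous eyes (1.95 ± 0.50, adjusted p = 0.272). Every open eye was above every closed eye in Timp1. In adult eyes none was called (1 unadjusted), and Timp3 was 2.51 ± 0.28 higher on the log2 scale in the adult than in newborn wild-type eyes (adjusted p = 0.00106).

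**Figure D4:**
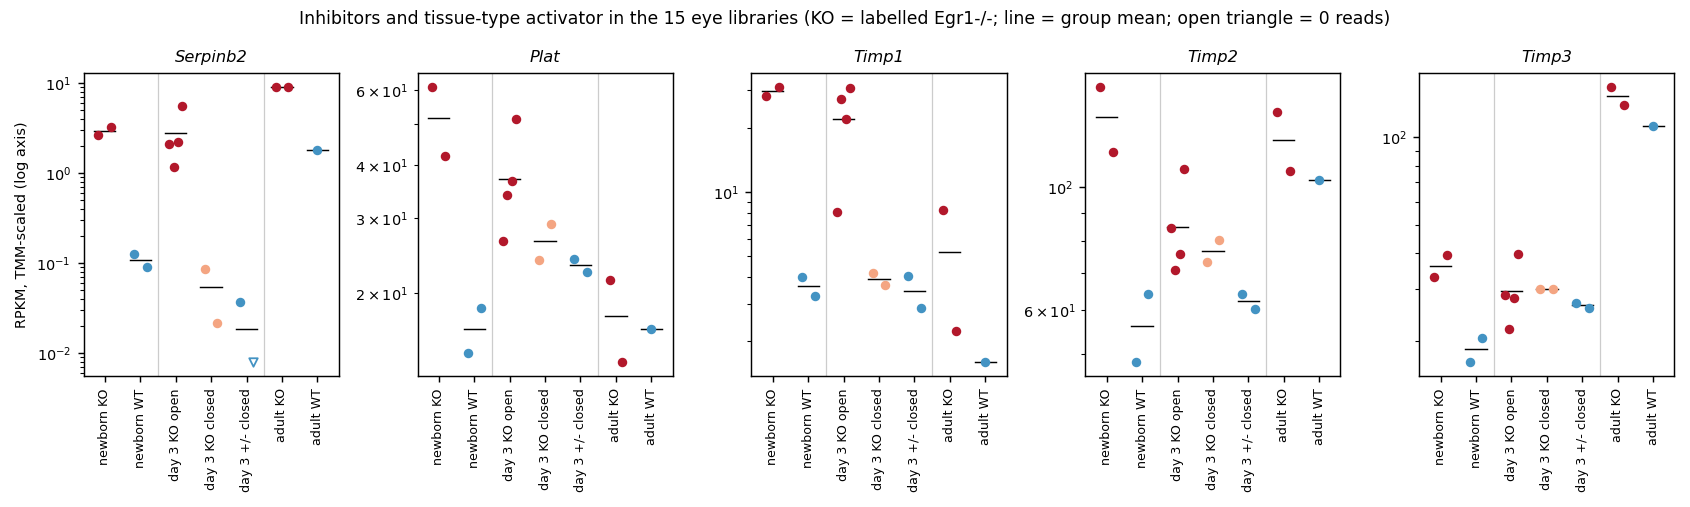
Level (RPKM, log axis) of Serpinb2, Plat, Timp1, Timp2 and Timp3 in each of the 15 libraries, by group; each point is 1 library, the line is the group mean and an open triangle marks 0 reads. Timp1 lies at 8.11 to 30.7 RPKM in the 4 open eyes and at 2.85 to 4.17 RPKM in the 4 closed eyes of day 3.

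Of 16 further Mmp genes, 13 were tested in newborn eyes, where Mmp15, Mmp16, Mmp19 and Mmp23 rose by 1.12 ± 0.25, 1.08 ± 0.18, 1.52 ± 0.29 and 1.23 ± 0.30 on the log2 scale and Mmp24, a membrane-type enzyme of nerve cells, fell by 1.55 ± 0.21 (log2 fold change -1.55). Their median was 0.44, and of all genes tested 14.6% rose and 9.38% fell. None was called in open eyes (1 of 10 unadjusted), in adults (1 of 13) or between day 3 genotypes (0 of 11). The chromosome 9 cluster that holds Mmp13, Mmp12, Mmp3 and Mmp10 has 6 further genes in RefSeq (Mmp1b, Mmp1a, Mmp8, Mmp27, Mmp20 and Mmp7), whose highest levels in any library lay between 0.154 and 1.5 RPKM. The 1.5 RPKM was that of Mmp8, the collagenase of neutrophils, in the left eye of E32. Of 23 Adam and Adamts genes other than Adam8, 14 rose in newborn labelled-knockout eyes and none fell, against 14.6% and 9.38% of all genes tested. Their median was 1.28, led by Adam28 (2.54 ± 0.28), Adamts12 (2.59 ± 0.29), Adamts14 (2.23 ± 0.30) and Adamts9 (2.07 ± 0.29). In open eyes none of the 23 was called (1 unadjusted), against a log2 fold change of 4.39 for Adam8. In adults none of the 23 was called either (1 unadjusted).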

How the data were processed

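Libraries were sequenced on the HiSeq 2000 platform following 18 PCR cycles, per the labels' protocols, which mention fixation as well as RNAlater; whether the sequenced eyes had been fixed is unclear. The protocol keeps no strand, so sense and antisense reads cannot be told apart. CASAVA 1.8, Bowtie 0.12.9, TopHat2 2.0.11, SAMtools and build mm8 are named in the submitters' processing notes; the counting tool is not given in the sources used here. The deposited tables hold the authors' raw read counts and RPKM for 24373 transcripts. The transcript with the highest mean count stood for each symbol. The deposited RPKM served to recover the authors' library totals and as another scale for the levels.

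Counts were tested in R 4.3.3 with edgeR 4.0.16 (TMM, filterByExpr, quasi-likelihood) over all genes, and the SE is the log2 fold change over the root of F. The 7 newborn and adult libraries shared 1 fit. At day 3 the mouse was a block in the fit of the 8 eyes, and genotypes were compared on reads summed per mouse. Lone samples were assumed to vary like the others. Alternatives were size factors, no filter, DESeq2 1.42.0, single libraries or mice left out, a replicate block, newborn libraries alone and subsets of eyes; the authors' totals and leaving out the left eye of E32 were added after seeing the data. All 10 members are named in every comparison, with up to 4 genes of smallest p from each other list and the genes most like each member (log2 CPM with 0.5 added). Mmp23, Mmp8, Plg and Vtn at day 3 were picked after their values were seen. 1 gene of the plasminogen list is not reported here. The members and lists were chosen with earlier results of these data known. The fits were tested on simulated data.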

Additional observations from a re-analysis of the deposited data

Results flagged for a closer look

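Among the 4 open eyes of day 3, Mmp9 had 1 eye far from the others: the left eye of E32, at 57.4 RPKM against 2.09 to 10.1 RPKM in the other 3, a gap of 0.856 of the whole range. In Mmp13 the same eye stood apart, at 7.65 RPKM against 0.725 to 1.65 RPKM, with a gap of 0.867 of the range. In Plau the open eye of E24 was the low one, at 7.36 RPKM against 25.6 to 27.9 RPKM, with a gap of 0.888. Each gap is above the 95% limit of Dixon's test for 4 samples, and 10 genes were looked at. Chance alone passes that limit in about 1 in 20 groups if values are independent and normally spread. The gaps were taken on RPKM and not on the log scale, so they may depend on the scale. Both eyes of E32 are among the 4, which are therefore not independent. Without the left eye of E32, Adam8 and Plau were the 2 members called in open eyes, among 151 genes.

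The genotype difference of Mmp9 differed between ages, by -3.80 on the log2 scale for adult minus newborn by edgeR's interaction contrast (adjusted p = 0.0455). It was not called without newborn wild-type library 1 or 2, without newborn labelled-knockout library 1 or with a replicate block.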

How the results depend on the processing

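Of 788 values of single members under the alternatives run (130 in newborns, 110 in adults, 110 for the difference of the genotype effects, 120 and 110 between ages, 120 for open eyelids, 88 for day 3 genotypes), 20 changed sign, 33 lost and 45 gained a call. In newborns no member changed sign. With the authors' library totals the median of all genes moved to 0.08, against -0.07 with TMM scaling; 2751 genes were then higher and 1084 lower, against 2576 and 1650, and all 10 members were called. In the difference of the genotype effects that setting gave 98 higher and 352 lower, against 175 and 317, and called 2 members (Mmp3 and Mmp9). It called 33 genes in adults and 1 member (Adam8) in open eyes, where Plau had an adjusted p of 0.052.

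With DESeq2, 107 genes and 1 member were called in adults, 2131 genes and 5 members in the difference of the genotype effects, 369 genes and 4 members in open eyes and 96 genes and 3 members between day 3 genotypes. Without the filter 13 genes were called in adults. The replicate numbers do not pair the newborn libraries (the correlation of the differences between replicates was 0.002 over 14050 genes between newborn wild type and labelled knockout, and 0.134 between adult and newborn labelled knockout). With the replicate block, 9 members and 3631 genes were called in newborns, 0 members and 0 genes in the difference of the genotype effects, and Mmp12 stood at -0.12 between labelled-knockout ages and -0.77 between wild-type ages, against 1.03 and 0.05. Open eyes gave 400 genes and 6 members without the mouse block (Mmp12 -0.05, against 0.87), 210 genes and 4 members in the pairs of E24 and E29 alone, and 151 genes without the left eye of E32. In closed eyes alone Plaur was at -0.31.

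Leaving out 1 newborn or adult library, or 1 day 3 mouse, at a time gave 0 to 5116 genes and 0 to 9 members in newborns, 0 to 205 and 0 to 3 in adults, 0 to 1613 and 0 to 4 in the difference of the genotype effects, and 0 to 129 and 0 to 2 in open eyes. It gave 3 to 8 members between labelled-knockout ages, 3460 to 6424 genes and 1 to 4 members between wild-type ages, and 0 to 6 genes between day 3 genotypes. Log2 fold changes that changed sign in adults ranged from -0.04 to 0.26 (Mmp10), -0.04 to 0.05 (Mmp14, also -0.01 with size factors or DESeq2) and -0.07 to 1.41 (Plau). Mmp12 ranged from -3.02 to 1.92 in the difference of the genotype effects and from -2.97 to 2.02 between labelled-knockout ages. Between wild-type ages the ranges were -1.34 to 1.64 (Mmp10), -0.48 to 0.98 (Mmp12) and -1.02 to 0.12 (Mmp13). In open eyes they were -0.30 to 0.41 (Mmp2), -2.69 to 9.36 (Mmp12) and -0.06 to 0.44 (Mmp14). The causes were not tested. Depth limits Mmp10 most, with at most 72 reads in a library; 0 reads allow up to 3. On the authors' deposited RPKM scale, member levels were 0.73 to 1.01 times the levels given here.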

Other observations

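Genes of the plasminogen list changed with age in eyes of both labels. Vtn encodes vitronectin, a matrix protein that binds the urokinase receptor. It was at 195 and 220 RPKM in adult labelled-knockout eyes, against 5.10 and 4.05 RPKM in newborn labelled-knockout eyes (log2 fold change 5.50 ± 0.24, adjusted p = 3.9e-05 by edgeR). In wild-type eyes Vtn was at 265 RPKM in the adult, against 2.86 and 2.89 RPKM in newborns (6.49 ± 0.27, adjusted p = 0.000186). Among the day 3 eyes, the left eye of E32 had 48.6 RPKM of Vtn, against 1.81 to 5.22 RPKM in the other 7 eyes. A2m, a protease inhibitor of broad range, was higher in adult than in newborn eyes by 2.51 ± 0.29 on the log2 scale in labelled-knockout eyes (adjusted p = 0.000692) and 2.37 ± 0.32 in wild-type eyes (adjusted p = 0.00203). Mmp11 and Mmp16 were lower in adults, with log2 fold changes of -2.51 ± 0.27 and -2.46 ± 0.19 in labelled-knockout eyes and -2.22 ± 0.35 and -1.22 ± 0.24 in wild-type eyes; all 4 passed the test. Of the 23 Adam and Adamts genes, 15 were lower and 3 higher in adult than in newborn labelled-knockout eyes, and 10 lower and 3 higher between wild-type eyes. Of all genes tested, 20.4% were lower and 19.3% higher between labelled-knockout ages, and 14.6% lower and 18% higher between wild-type ages. Among the Adam and Adamts genes, Adamts12 had the smallest p in labelled-knockout eyes (-4.95 ± 0.34). In wild-type eyes it was Adam28, higher in the adult (3.99 ± 0.32).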
